A study of Mus musculus with 4 samples.

Results

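Transcripts of 10 genes of the Hippo pathway and its hedgehog output were examined in liver samples taken from 4 C57BL/6J mice, all male and 18 weeks of age. The genes were chosen by name, and each was found once among the 24138 rows of the deposited table. They were the coactivators Wwtr1, which encodes TAZ, and Yap1, which encodes YAP, the DNA-binding factor Tead1, the kinases Lats1 and Lats2, the target genes Amotl2, Ankrd1, Ctgf and Cyr61, and the ligand gene Ihh (Indian hedgehog). Per the labels, all 4 mice were fed the FAT-MASH diet, used to model metabolic dysfunction-associated steatohepatitis (MASH), and were treated with resolvin D1 (RvD1), a lipid mediator of the resolution of inflammation. Neither the dose nor the duration of either is given in the labels. The animals form a single group, and livers without RvD1, or without the diet, were not analysed here, so the values are levels and their spread between animals, and no effect of diet or RvD1 can be read from them. In whole liver, fewer cells of a type and less RNA per cell cannot be told apart.

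In the Hippo pathway, the LATS kinases phosphorylate YAP and TAZ, which keeps them in the cytoplasm or leads to their degradation. When not phosphorylated, the coactivators enter the nucleus and bind TEAD factors, which recognise the letters GGAATG or, on the other strand, CATTCC. Their targets include genes of matricellular proteins and genes of proteins that restrain the pathway. In steatohepatitis, TAZ in hepatocytes is known to raise Ihh, and the secreted ligand acts on hepatic stellate cells through the receptor Ptch1, the transducer Smo and the Gli factors. Much of the control of YAP and TAZ acts on the proteins, which were not measured here.

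The letters that TEAD factors recognise were searched for in the 250 bases before the transcription start of each gene, on both strands, in RefSeq promoter sequences of GRCm38.p6. Windows were matched for 8 of the 10 genes, not for Tead1 and Ctgf, and 5 of the 8 genes held a match. Counted by window, since Wwtr1 and Lats2 have more than 1 start, 6 of 10 held one; both Wwtr1 windows overlap and hold the same match, which the count by gene takes once. Over all 32851 promoter windows of the same length, 12.6% held one and 1.02% held at least 2. The 30 bases around each match are shown because these letters are the known contact of TEAD factors with target genes; capitals mark the 6 matched letters, each stretch reads 5′ to 3′ on the strand of the gene, and a match is not evidence of binding.
Amotl2: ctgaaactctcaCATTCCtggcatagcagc
Ankrd1, far: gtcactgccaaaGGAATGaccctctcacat
Ankrd1, near: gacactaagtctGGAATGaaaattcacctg
Cyr61: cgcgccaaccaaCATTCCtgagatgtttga
Wwtr1: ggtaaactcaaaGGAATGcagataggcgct
Yap1: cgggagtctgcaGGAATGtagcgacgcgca

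The match in Amotl2 (chr9:102717727-102717756, plus strand) began 65 bases before the start. Ankrd1 had its matches 210 bases (chr19:36120037-36120066, minus strand) and 123 bases (chr19:36119950-36119979) before the start. In GENCODE vM21 these stretches of Amotl2 and Ankrd1 lie in untranslated exon sequence of longer transcripts of the same genes. The match of Cyr61 lay 103 bases before the start (chr3:145650071-145650100, minus strand), that of Wwtr1 136 bases (chr3:57576029-57576058, minus strand) and that of Yap1 141 bases (chr9:8004720-8004749, minus strand), and these 3 stretches overlap no annotated transcript. The windows of Ihh, Lats1 and Lats2 did not hold these letters.

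Levels were read as FPKM, fragments scaled by transcript length and by the mapped fragments of the library, which allows genes to be set side by side. About 18.8 to 20.1 M fragments (M, mega) were estimated per library. In the table as a whole, 43.7% of rows had a mean of at least 1 FPKM, the minimum used here for an expressed gene; 9 of the 10 genes passed it and Ankrd1 did not. Among the 10541 expressed genes the median SD between livers was 0.16 on the log2(FPKM + 1) scale, which understates differences of low genes. Hepatocyte transcripts were abundant, with Apoa1 at 12970 ± 1593 FPKM and Cps1 at 589 ± 126 FPKM (SD, n = 4), although Alb was listed at 0 in all 4 livers, so a 0 in this table can be a failed estimate.

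Yap1 was the most abundant of the 10 genes, followed by Amotl2, Wwtr1, Ctgf, Cyr61, Lats1, Lats2, Ihh, Tead1 and Ankrd1 in order of mean level. The ranges of neighbours in this order did not overlap at 4 steps, between Yap1 and Amotl2, Cyr61 and Lats1, Lats2 and Ihh, and Tead1 and Ankrd1. The ranges of the other neighbours overlapped. Within livers Wwtr1 exceeded Ctgf, and Lats1 exceeded Lats2, in 4 of 4 livers, Ctgf exceeded Cyr61 and Ihh exceeded Tead1 in 3 of 4, and Amotl2 exceeded Wwtr1 in 2 of 4.

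**Figure D1:**
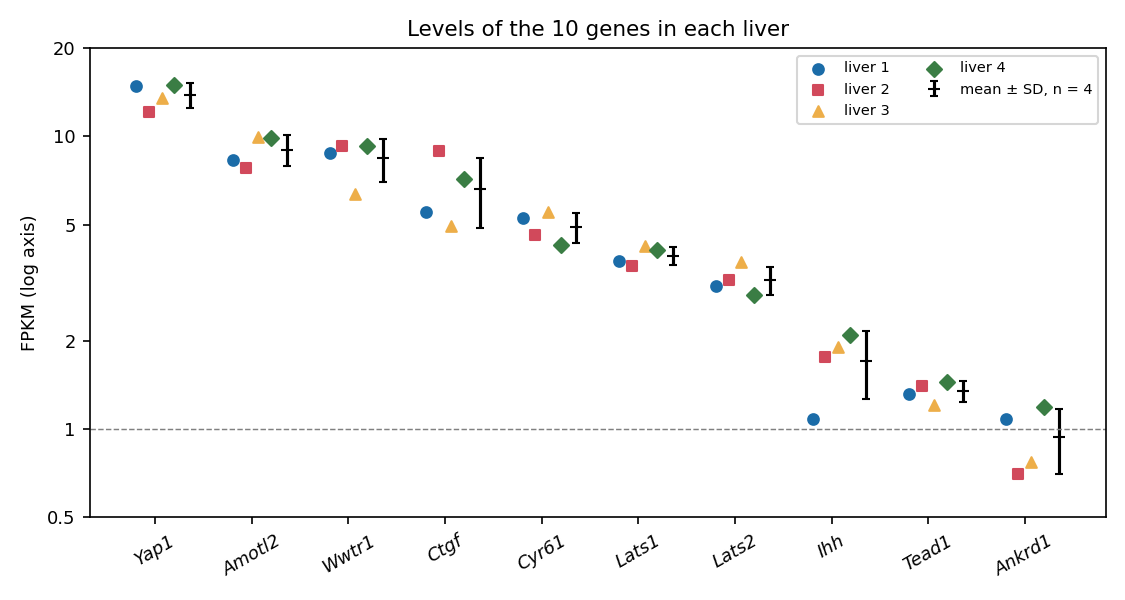
Level of each of the 10 genes (FPKM, log axis) in livers 1 to 4, one symbol per liver, with the mean and SD (n = 4) as a black bar; the dashed line marks 1 FPKM. Yap1 lies above the other genes in every liver, Wwtr1 is low in liver 3, Ihh is low in liver 1, and Ankrd1 lies on both sides of 1 FPKM.

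Wwtr1 (XLOC_013743, chromosome 3, 57455644 to 57575910) had 8.80, 9.27, 6.33 and 9.27 FPKM across livers 1 to 4. Liver 3 was low and the other 3 livers lay close together, within 1.05-fold of each other. The mean was 8.42 ± 1.41 FPKM (SD, n = 4). The gap between liver 3 and the next liver, divided by the whole range on the log2 scale, was 0.859, a Dixon ratio above the 95% critical value. Among expressed genes 5.46% exceeded it in some liver, and 1.07% through a low value in liver 3. Of the 9 expressed members 1, Wwtr1, was past it, a count too small to be read against that share. When libraries were rescaled to equal sums the ratio of Wwtr1 was 0.755 and no longer past the critical value. Stellate cell and fibroblast markers (8 of 8 expressed) summed to 196 FPKM in liver 3 and to 219 to 300.2 FPKM in the other livers, and macrophage markers (6 of 6 expressed) to 155 FPKM in liver 3 and 156 to 208 FPKM in the others. Endothelial markers (6 of 6 expressed) did not have their lowest sum in liver 3, at 46.7 FPKM, but in liver 1, at 41.9 FPKM. Cholangiocyte markers (5 of 6 expressed) summed to 192 FPKM in liver 3 and 205 to 233 FPKM in the others. Hepatocyte markers (5 of 6 expressed, Alb at 0) summed to 17987 FPKM in liver 3 and 17807 to 22897 FPKM in the others. These sums are carried by a few genes. By median deviation liver 3 was at -0.11 for the stellate cell and fibroblast list, where liver 4 was at -0.20, at -0.21 for the macrophage list and at 0.07 for the hepatocyte list. It was at -0.09 for the endothelial list, where liver 1 was at -0.23, and at -0.04 for the cholangiocyte list, where liver 4 was at -0.07. The part of cell composition in the low Wwtr1 value was not tested.

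Yap1 (XLOC_022362, chromosome 9, 7932001 to 8004596) had 14.8, 12.1, 13.5 and 15.0 FPKM across livers 1 to 4. The values lay within 1.24-fold, with liver 2 lowest, around a mean of 13.9 ± 1.34 FPKM (SD, n = 4). Liver 3, low for its paralogue Wwtr1, was not apart for Yap1. YAP is abundant in bile duct cells. Among the 5 expressed cholangiocyte markers, livers 1, 2 and 3 were highest for 2, 1 and 2 genes. For all expressed genes these livers were highest in 17.9%, 22.0% and 26.8%. None of the 5 was lowest in liver 2, beside 29.9% of expressed genes, and 5 markers are too few to be read against these shares. The list, led by Spp1, summed to 233, 205, 192 and 213 FPKM across livers 1 to 4. The part of bile duct cells in the Yap1 values was not tested.

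Within each liver Wwtr1 stood below Yap1, at 0.592, 0.765, 0.469 and 0.618 of its level in livers 1 to 4. The ratio was thus lowest in liver 3 and highest in liver 2. On the log2 scale it averaged -0.73 ± 0.29 (SD, n = 4), a 1.66-fold higher level of Yap1, in 4 of 4 livers. An exact two-sided sign-flip permutation test over livers gave p = 0.125, the smallest that 4 livers allow, so the test could not reach 0.05. This was the single test of its kind.

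Tead1 (XLOC_019093, chromosome 7, 112679320 to 112906805), the DNA-binding partner, had 1.32, 1.41, 1.20 and 1.45 FPKM across livers 1 to 4. Its SD of 0.07 on the log2 scale was the smallest of the 10 genes, and 92.8% of expressed genes had a larger one. This scale compresses low genes, and by coefficient of variation Lats1 (7.25%) varied less than Tead1 (8.14%). The mean was 1.34 ± 0.109 FPKM (SD, n = 4). Among the other TEAD genes Tead3 was higher in every liver, at 3.87, 2.92, 5.73 and 4.23 FPKM, on average 3.03 times Tead1. Tead2 was listed at 0.928, 0.733, 0.789 and 1.16 FPKM, and Tead4 was between 0.0163 and 0.0904 FPKM. Tead3 ranged 1.96-fold, with liver 3 highest, whereas Tead1 was lowest in liver 3.

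Of 10 coactivator, TEAD and Vgll genes, 5 were expressed. Vgll4, a cofactor that competes with YAP and TAZ for TEAD factors, was listed at 6.18, 4.96, 8.48 and 7.88 FPKM. Vgll1 and Vgll2 were listed at 0 in all livers, and Vgll3 was between 0.0605 and 0.201 FPKM. The highest of these genes besides Yap1 and Wwtr1 was therefore Vgll4, with liver 3 high and liver 2 low.

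Of the kinase genes, Lats1 ranged 1.17-fold and Lats2 1.30-fold across livers, where the median range of expressed genes was 1.34-fold. With libraries rescaled to equal sums the ranges were 1.18-fold for Lats1 and 1.43-fold for Lats2. By median ratios they were 1.16-fold and 1.36-fold. Lats1 (XLOC_001342, chromosome 10, 7681209 to 7716461) had 3.75, 3.61, 4.21 and 4.10 FPKM across livers 1 to 4, with a mean of 3.92 ± 0.284 FPKM (SD, n = 4). Lats2 (XLOC_006713, chromosome 14, 57689662 to 57746123), itself a YAP and TAZ target, was listed at 3.08, 3.23, 3.73 and 2.87 FPKM, with a mean of 3.23 ± 0.363 FPKM (SD, n = 4). Liver 3 was highest for both genes. Lats1 exceeded Lats2 in 4 of 4 livers, by 1.22-fold on average, although the ranges overlapped across livers. An annotated protein-coding model, Gm49361, overlaps Lats2 on the same strand, and how the authors divided reads between them is not given in the sources used here.

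The wider list of Hippo kinases, adaptors and inhibitors was nearly all expressed, 26 of 29 genes. The 3 below 1 FPKM were Ptpn14, Fat4 and Dchs1, the last 2 of which encode large cadherins. The highest levels were those of the casein kinase gene Csnk1d (20.3 ± 1.14 FPKM), the kinase gene Taok3 (17.5 ± 4.28 FPKM) and Wwc1 (16.9 ± 2.85 FPKM; each SD, n = 4). Wwc1 encodes KIBRA, a scaffold that activates the LATS kinases, and its values were 17.8, 12.7, 18.2 and 18.9 FPKM across livers 1 to 4, lowest in liver 2. The MST kinase genes Stk3 and Stk4 had means of 4.34 and 4.73 FPKM. The median SD of the 26 genes was 0.14, close to that of all expressed genes.

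Among the 4 target genes, Amotl2 and Ctgf were the highest and Ankrd1 the lowest. Amotl2 (XLOC_022164, chromosome 9, 102717804 to 102733417), which encodes an angiomotin that binds YAP and restrains it, had 8.33, 7.79, 9.98 and 9.88 FPKM across livers 1 to 4. Livers 3 and 4 were higher than livers 1 and 2, within a 1.28-fold range. The mean was 8.995 ± 1.10 FPKM (SD, n = 4).

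Ctgf (XLOC_001402, chromosome 10, 24595442 to 24598682), the matricellular connective tissue growth factor, was listed at 5.53, 8.89, 4.94 and 7.18 FPKM. Liver 2 was highest and liver 3 lowest, a 1.80-fold range, with a mean of 6.63 ± 1.78 FPKM (SD, n = 4). Its SD of 0.33 on the log2 scale was larger than that of 93.2% of expressed genes, the widest of the 10 genes. Without liver 2 its range was 1.45-fold. Cyr61 (XLOC_014164, chromosome 3, 145646971 to 145649985), a relative of Ctgf and likewise a matricellular protein gene, was listed at 5.25, 4.61, 5.53 and 4.25 FPKM, with a mean of 4.91 ± 0.586 FPKM (SD, n = 4). Liver 3, lowest for Ctgf, was highest for Cyr61. The ratio of Ctgf to Cyr61 was accordingly 1.05, 1.93, 0.893 and 1.69 in livers 1 to 4.

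Ankrd1 (XLOC_010892, chromosome 19, 36111965 to 36119844), which encodes an ankyrin repeat protein, was listed at 1.08, 0.704, 0.774 and 1.19 FPKM. Livers 1 and 4 lay above 1 FPKM and livers 2 and 3 below it, around a mean of 0.938 ± 0.236 FPKM (SD, n = 4). These values rest on about 24.8 to 40.9 fragments, for which counting alone gives a relative error of 20.1% in the lowest liver and 15.6% in the highest, against an observed coefficient of variation of 25.1%.

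The targets did not share 1 order of livers. Ctgf was highest in liver 2, Ankrd1 in liver 4, and Amotl2 and Cyr61 in liver 3. The median deviation of the 4 genes from their means was -0.12 in liver 2 and 0.13 in liver 4, and 0.00 and 0.01 in livers 1 and 3. Over the 3 expressed targets, without Ankrd1, it was -0.09, -0.07, 0.14 and 0.13 in livers 1 to 4. Over all expressed genes it was -0.02 in liver 2 and 0.04 in liver 4. For the 4 genes the value of liver 4 was 0.04 when libraries were rescaled to equal sums, and that of liver 2 was -0.05 with a pseudocount of 5.

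**Figure D2:**
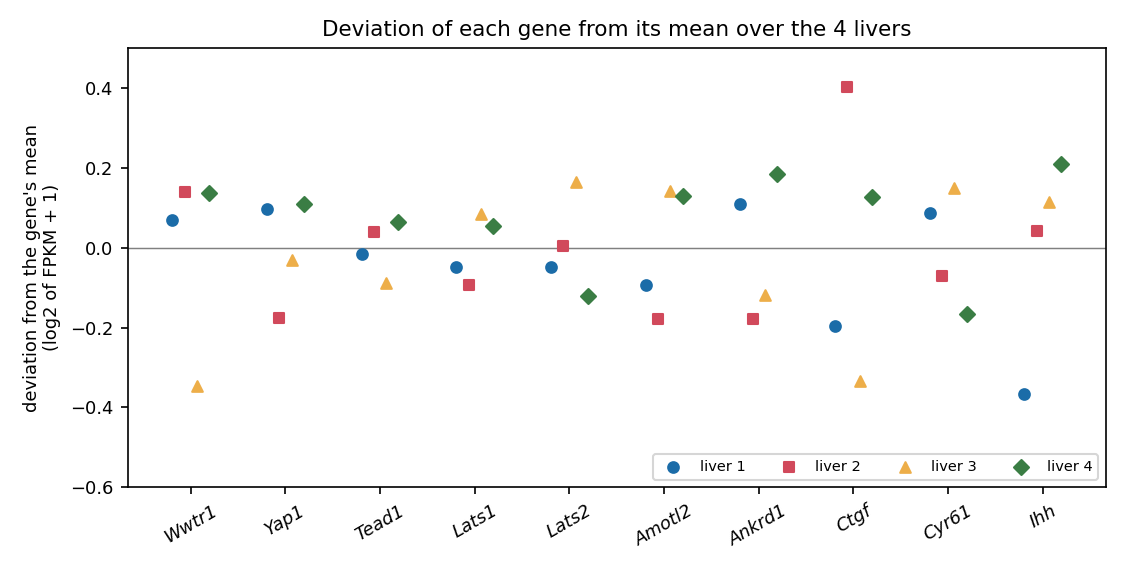
Deviation of each gene from its mean over the 4 livers on the log2(FPKM + 1) scale, one symbol per liver. Ctgf spans the widest distance with liver 2 at the top, Wwtr1 and Ctgf are lowest in liver 3, and Amotl2, Lats1, Lats2 and Cyr61 are highest there.

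Of the 9 expressed members, liver 2 was the highest in 2 (Wwtr1 and Ctgf; 22.0% of expressed genes) and the lowest in 3 (Yap1, Lats1 and Amotl2; 29.9%). Liver 3 was highest in 4 (26.8%) and lowest in 3 (31.4%). Liver 4 was highest in 3 (33.3%) and lowest in 2 (18.1%), and liver 1 highest in 0 (17.9%) and lowest in 1, Ihh (20.7%). With libraries rescaled to equal sums or by median ratios, Yap1 was highest in liver 1 and Tead1 in liver 2. A range of at least 1.5-fold was found in 2 of the 9, Ctgf and Ihh, beside 28.4% of expressed genes. The count was 1 without liver 1 and 0 with a pseudocount of 5 on the log scale.

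Wwtr1 and Ctgf had the same order of livers, 2, 4, 1 and 3 from high to low, as did 6.50% of all expressed genes. For Wwtr1 the values of livers 2 and 4 were nearly equal, and with libraries rescaled to equal sums its order was 2, 1, 4 and 3 while that of Ctgf did not change. Lats1 and Amotl2 shared the order 3, 4, 1 and 2, found in 6.75% of expressed genes. These orders were singled out after the values were seen. In the pathway lists, 56 of 88 genes were expressed. The first order was held by 8 of them, Wwtr1 and Ctgf by choice, and Mob1b, Stk38, F3, Igfbp3, Gas1 and Rhoa. F3 (tissue factor) had 3.60, 5.50, 3.28 and 4.80 FPKM and Igfbp3 had 8.84, 13.99, 8.01 and 10.07 FPKM. Both are target genes, and with Ctgf they were the only 3 of 15 expressed genes of the target signature described below in this order. The second order was held by 7, Lats1 and Amotl2 by choice, and Amotl1, Limd1, Tead3, Vgll4 and Dock5, a gene of that signature.

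Liver 2, in which Ctgf was highest, also had the highest summed level of endothelial markers (54.5 FPKM, 41.9 to 53.3 FPKM in the others; 6 of 6 expressed) and of stellate cell and fibroblast markers (300.2 FPKM). The order of Ctgf was held by 2 of the 6 endothelial markers and by 1 of the 8 stellate cell and fibroblast markers. Liver 2 was highest in 4 of the 6 and 5 of the 8. Over expressed genes 22.0% had liver 2 highest and 6.50% had the order of Ctgf. The endothelial sum is led by Clec4g, which was highest in liver 4 (33.6 FPKM). Liver 2 was highest in 0 of the 5 expressed hepatocyte markers and 1 of the 5 cholangiocyte markers. Of the 6 macrophage markers liver 2 was highest in 2 and above the mean in 6, and 1 held the order of Ctgf. Their sum was highest in liver 4 (208 FPKM). Acute phase transcripts were also highest in liver 2, with a summed level of 11511 FPKM against 3028 to 4212 FPKM. Liver 2 was highest in 8 of the 8 acute phase genes, and 3 of them had the order of Ctgf. Whether these bear on Ctgf was not tested. Of the 6 expressed immediate early genes, 2 were highest in each of livers 1, 2 and 3. The shares of all expressed genes were 17.9%, 22.0% and 26.8%.

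A widely used signature of 22 YAP and TAZ target genes, which includes Lats2 and the 4 target genes above, had 15 expressed genes. Their median SD was 0.14 and 5 of the 15 had a range of at least 1.5-fold, beside 28.4% of expressed genes. The highest were Ccdc80 (13.9 ± 2.08 FPKM), Igfbp3 (10.2 ± 2.64 FPKM) and Gadd45a (9.38 ± 3.59 FPKM; each SD, n = 4). Gadd45a, a stress-induced gene also controlled by other pathways, was listed at 8.94, 8.49, 5.75 and 14.3 FPKM, with liver 4 high and liver 3 low. The signature summed to 85.2, 97.9, 85.04 and 92.7 FPKM in livers 1 to 4.

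**Figure D3:**
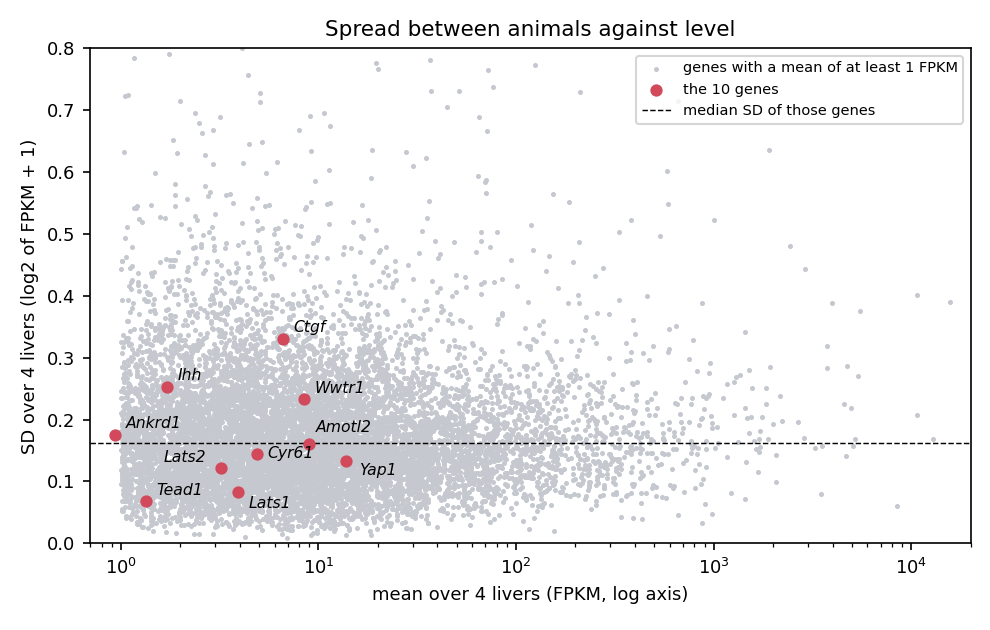
SD over the 4 livers (log2 of FPKM + 1) against mean level (FPKM, log axis) for all expressed genes (grey) and the 10 genes (red), with the median SD as a dashed line; 46 genes with an SD above 0.8 lie outside the plot. Ctgf, Ihh, Wwtr1 and, by less, Ankrd1 lie above the median, Tead1 and Lats1 in the lower part of the cloud.

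Ihh (XLOC_000878, chromosome 1, 74945318 to 74951651) had 1.08, 1.76, 1.90 and 2.10 FPKM across livers 1 to 4. Liver 1 was low and the other 3 livers were within 1.19-fold of each other, so that the 1.94-fold range, the widest of the 10 genes by this measure, rests on liver 1. The mean was 1.71 ± 0.443 FPKM (SD, n = 4). About 49.4 fragments lay behind the value of liver 1 and 89.9 behind that of liver 4, with counting errors of 14.2% and 10.5%, against a coefficient of variation of 25.9%. Dixon's ratio for Ihh was 0.707, short of the critical value, and 0.833, past it, when libraries were rescaled to equal sums.

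Ihh and Wwtr1 were not lowest in the same liver. Liver 3, lowest for Wwtr1, had the second highest value of Ihh, and liver 1, lowest for Ihh, had a Wwtr1 level close to that of livers 2 and 4. With 4 livers no correlation was computed.

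Ihh was the highest of the 3 hedgehog ligand transcripts in every liver. Shh was listed at 0.0708, 0, 0.0232 and 0 FPKM, and Dhh at 0.0439, 0, 0.0482 and 0.0488 FPKM, values that correspond to at most about 3.8 fragments. Of 8 genes of ligands and their release, Scube1, a secreted carrier gene, was the only other expressed one, at 1.29, 1.76, 1.40 and 0.665 FPKM. Hhat, which acylates the ligands, had 0.380 ± 0.0912 FPKM and Disp1, which releases them, 0.650 ± 0.0974 FPKM (each SD, n = 4). Scube2 was listed at 0 in all livers.

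On the receiving side 4 of 14 genes were expressed, Ptch1, Smo, the coreceptor gene Gas1 and Spop, a ubiquitin ligase adaptor gene with further substrates. Ptch1, the receptor and itself a target of the pathway, was listed at 2.62, 2.75, 3.36 and 2.33 FPKM. Smo, the transducer, was listed at 2.59, 2.32, 2.75 and 1.87 FPKM. Liver 3 was highest and liver 4 lowest for both. Gas1 was higher, at 10.7, 12.3, 8.52 and 10.8 FPKM, and the other coreceptor genes Boc and Cdon had means of 0.245 and 0.379 FPKM.

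The Gli transcription factor genes were low. Gli1, a direct target of hedgehog signalling, was listed at 0.0652, 0.149, 0.239 and 0.137 FPKM, from about 5.1 to 18.0 fragments. Its lowest value was in liver 1, as for Ihh, and its highest in liver 3, as for Ptch1. Ptch1, however, was lowest in liver 4, where Ihh was highest. Counting alone gives Gli1 a relative error of 44.5% in liver 1 and 23.6% in liver 3, against a coefficient of variation of 48.3%. Among expressed genes 20.7% were lowest in liver 1 and 26.8% were highest in liver 3. Gli2 was between 0.0125 and 0.0604 FPKM and Gli3 between 0.0372 and 0.140 FPKM. The decoy receptor gene Hhip was at most 0.0566 FPKM.

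**Figure D4:**
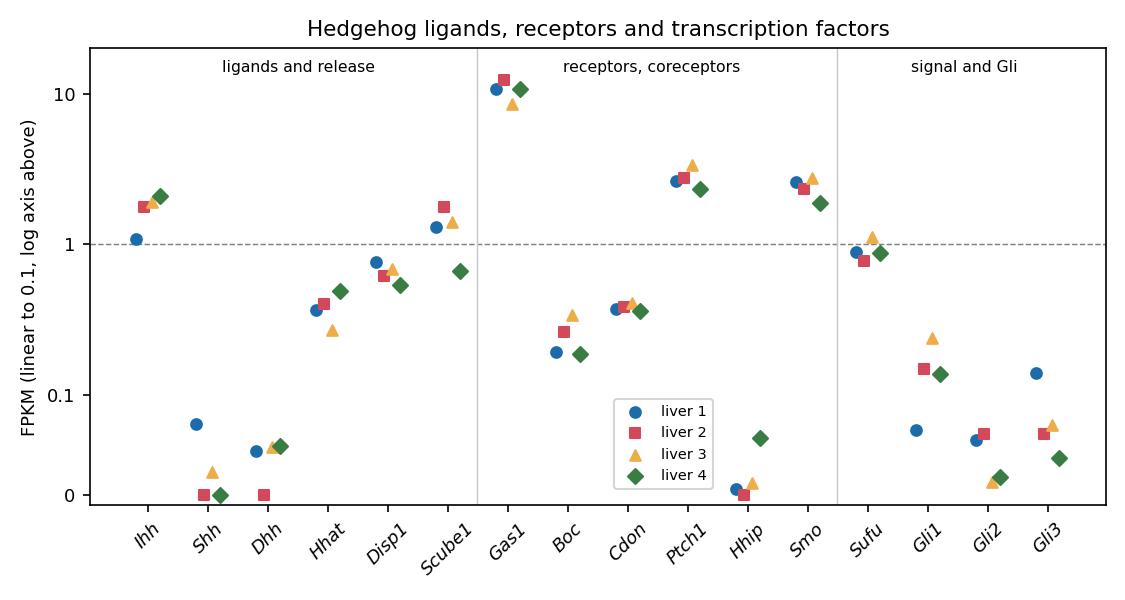
Levels of hedgehog genes in livers 1 to 4 (FPKM, linear to 0.1 and log above), grouped as ligands and release, receptors and coreceptors, and downstream genes; the dashed line marks 1 FPKM. Ihh stands above Shh and Dhh in all livers, Gas1, Ptch1 and Smo are above 1 FPKM, and the Gli genes lie below 0.3 FPKM.

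Cholesterol taken into hepatocytes is known to stabilise TAZ through Aster transporters, soluble adenylyl cyclase, protein kinase A, calcium release and RhoA. Of 8 genes listed for this route, 6 were expressed, with a median SD of 0.07. The widest was Gramd1a (Aster-A), listed at 5.94, 4.19, 5.36 and 3.24 FPKM, with an SD of 0.32. Rhoa had 88.01 ± 4.49 FPKM, Prkaca, a catalytic subunit of protein kinase A, 30.8 ± 1.62 FPKM, and Gramd1c (Aster-C) 7.30 ± 0.293 FPKM (each SD, n = 4). Gramd1b (Aster-B) was listed at 0.330, 0.524, 0.673 and 0.275 FPKM, and Adcy10, the soluble adenylyl cyclase gene, at 0 in 3 livers and 0.0211 FPKM in liver 3.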

How the data were processed

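Liver RNA of 4 mice was sequenced after poly(A) enrichment, per the labels' protocols. The submitters' processing notes list FastQC 0.10.1, Trim Galore 0.6.3, cutadapt, STAR 2.7.6a and Cufflinks 2.2.1 and the build mm10, with no roles. The authors' deposited values were read as FPKM, since they are not whole numbers and carry Cufflinks identifiers; the header names no unit, and annotation and strand are not given in the sources used here. Columns were matched through sample descriptions, and 0 were left unmatched. Adding 1 to the starts raised the share equal to RefSeq GRCm38.p6 from 3.00% to 52.0% of 22562 symbols, and printed starts include it.

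With Python 3.11.15, values were analysed as log2(FPKM + 1), with an expressed gene having a mean of at least 1 FPKM. Depth came from 3436 genes with a single GENCODE vM21 transcript longer than 800 bases. The median product of FPKM and length less 200 bases, between 25 and 75, was taken as 1 fragment. Only 82 to 142 values per library fell in this window. Their medians, 49.8 to 53.1, lie near its middle, so the window may partly set them. The longest coding transcript gave fragments per gene, so these are approximate, and the errors cover counting only. The calculation of Dixon's ratio was checked on simulated data with a shift added in 1 liver, which says nothing about these livers. Replicates are labelled as separate livers. Members and lists were chosen with earlier results of these data known. The text names all members, the 3 highest genes of a list, genes at 0 or past Dixon's ratio, and chosen TEAD and hedgehog genes; others were named after their values were seen. Ctgf and Cyr61 are Ccn2 and Ccn1 in RefSeq. Alternatives were scaling, pseudocounts, minimum levels and leaving out each liver.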

Additional observations from a re-analysis of the deposited data

Results flagged for a closer look

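In 4 of 87 genes tested among the members and the expressed genes of the pathway and marker lists, 1 liver lay apart from the other 3 by Dixon's ratio, a share of 4.60%; chance flags about 1 gene in 20. Wwtr1 was low in liver 3 (6.33 FPKM, ratio 0.859). The LATS scaffold gene Wwc1 was low in liver 2 (12.7 FPKM, ratio 0.850). The duct and progenitor factor gene Sox9, also used as a cholangiocyte marker, was low in liver 4 (3.37 FPKM against 4.88 to 5.22 FPKM, ratio 0.841). Apoa1, a hepatocyte marker, was high in liver 4 (15343 FPKM, ratio 0.870). All values of liver 4 summed to 570681 FPKM, against 516816 to 524394 FPKM in the other livers. With libraries rescaled to equal sums the ratio of Wwtr1 was 0.755, not past the critical value. The ratios of Wwc1, Sox9 and Apoa1 were not computed after rescaling.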

How the results depend on the processing

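The mean levels of the 10 genes moved by less than their SD under both scalings. The scalings shift livers against each other, so a mean over all 4 can hardly move and its stability says little. The log2 ratio of Wwtr1 to Yap1 stayed below 0 and ran from -0.85 to -0.61 when livers were left out in turn, and at -0.73 and -0.50 with pseudocounts of 0.1 and 5. One member was past Dixon's ratio under each scaling, pseudocount and minimum level, but it was Ihh in place of Wwtr1 when libraries were rescaled to equal sums. The count of members with a range of at least 1.5-fold was 1 to 2 when a liver was left out, with 1 without liver 1, and 0 with a pseudocount of 5. Without liver 2 the 2 were Ihh and Ankrd1 (1.54-fold), whose mean then passed 1 FPKM, and Ctgf (1.45-fold) was not among them. With a minimum of 5 FPKM in place of 1, the counts of expressed genes fell to 4 members, 10 Hippo genes, 3 coactivator and TEAD genes, 6 signature genes, 0 ligand and release genes and 2 hedgehog reception genes. With a minimum of 0.1 FPKM they were 5 for ligands and release and 10 for reception. The median deviation of the targets changed sign in livers 1 and 3 with scaling or pseudocount, and ranged from -0.14 to -0.05 in liver 2 and from 0.04 to 0.15 in liver 4. No paired analysis was possible because there is a single group, so replicate numbers pair no samples; genes were compared within livers. Depth limits the values of Ankrd1, Shh, Dhh and the Gli genes.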
